A study of Sus scrofa with 74 samples.

Results

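The Z-disc is the plate that bounds each sarcomere of a skeletal muscle fibre and anchors the actin filaments of neighbouring sarcomeres. Alpha-actinin cross-links these filaments, and a layer of smaller proteins (myozenins, myotilin, telethonin and LIM domain proteins) binds alpha-actinin, titin and signalling enzymes such as calcineurin. Several of these proteins exist as forms that are typical of slow or of fast fibres, and the fast longissimus muscle of the pig contains both kinds of fibre. The set described here was defined by 10 genes, namely ACTN2 and ACTN3 (alpha-actinins), MYOZ1 and MYOZ2 (myozenins, also called calsarcins), LDB3, TCAP (telethonin), CSRP3, FHL1, MYOT (myotilin) and ANKRD2.

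A gene was represented where the array annotation assigned a probe set to that gene symbol alone. Of the 10 genes, 5 met this rule with 6 of the 24123 probe sets of the table. These were ACTN2 (Ssc.18312.1.S1_at and Ssc.763.1.S1_at), MYOZ1 (Ssc.10961.1.S1_at), TCAP (Ssc.13807.1.S1_at), FHL1 (Ssc.14463.1.S1_at) and MYOT (Ssc.10939.1.S1_at). ACTN3, LDB3, CSRP3 and ANKRD2 had no probe set under this rule, and the 2 probe sets of MYOZ2 also carried a second gene symbol, so no value is given for these 5 genes. All 6 member probe sets passed the filter on low values, which kept the 11999 of highest median intensity among the 23999 probe sets that were not controls. Their median intensities ranked above at least 97.9% of the kept probe sets; this rank describes the probe sets and does not set the abundance of one gene against another.

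Expression was measured in 74 pigs of the F2 generation of a Duroc × Pietrain resource population, each with 1 Affymetrix Porcine Genome Array hybridised with RNA of M. longissimus dorsi, a fast back muscle used for meat quality work. The pigs reached a mean end weight of 110 kg, the tissue was snap frozen directly after slaughter, and all animals were free of the RYR1 mutation for malignant hyperthermia. They form a single group without treatment or control, and they came from full-sib families that the labels do not name, so that the tests, which take animals as independent, do not account for kinship. The labels number the animals with a gap, and the 24 animals with numbers 1 to 33 (the first block) were therefore kept apart from the 50 animals with numbers 60 to 114 (the second block). The labels do not explain the numbers.

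Values are linear intensities that were scaled here to a trimmed mean of 500 per array and taken to log2. Array level, the trimmed mean before scaling, ranged from 50.3 to 183 and averaged 87.1 ± 14.9 (SD, n = 24) in the first block and 130 ± 20.2 (SD, n = 50) in the second. Muscle fibre markers CKM, MYBPC1 and TTN passed the filter, while the heart genes NPPA, NPPB and TNNI3 did not. Of the arrays, 3 stood apart. The mean correlation of an array with the others had a median of 0.912, and it was lowest for animal 23 (0.845), animal 26 (0.856) and animal 114 (0.871). Animal 114 had the highest array level of all 74 and was the lowest animal in 5.2% of kept probe sets and the highest in 5.71%, where 1.35% would fall to each animal if all were alike. Its summed marker intensities were the highest of all animals for the erythroid list (2 of 3 genes kept) and the nerve list (1 of 4 genes kept), and ranked 72 of 74 from the lowest for the fibroblast list (4 of 6 kept) and 71 for the adipocyte list (2 of 5 kept). It was the lowest of all animals for the summed skeletal muscle fibre list (16.52, with 3 of 6 genes kept), the smooth muscle list (14.45, 4 of 5 kept) and the wider Z-disc list used below (18.11). Over all animals the r of these 3 sums with the slow troponin score described below was 0.566, 0.375 and 0.512, and without animal 114 it was 0.383, 0.245 and 0.268. Results are given with and without this animal where it moved them; the part of its other markers in them was not tested.

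ACTN2, the alpha-actinin of slow and fast fibres, had different patterns on its 2 probe sets. On Ssc.18312.1.S1_at the lowest, median and highest log2 intensities were 13.67, 14.13 and 15.10 in the first block and 11.49, 14.13 and 14.57 in the second. The blocks overlapped, their medians were the same to 2 decimals, and 1 animal of the second block, animal 114, lay 1.89 below the next lowest animal of the series. On Ssc.763.1.S1_at the values were 12.76, 13.74 and 14.06 in the first block and 11.97, 14.33 and 14.67 in the second. Here 42 of 50 animals of the second block lay above the highest animal of the first, and animal 114 was again the lowest.

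FHL1, a LIM domain protein of the sarcomere and the nucleus, had values of 14.84, 15.11 and 15.89 in the first block and 14.23, 15.39 and 15.94 in the second. The second block lay higher on the whole, but the blocks overlapped and the lowest value belonged to animal 114. MYOZ1, a myozenin that tethers calcineurin to alpha-actinin and is typical of fast fibres, had values of 14.36, 15.31 and 15.82 in the first block and 15.06, 15.44 and 15.70 in the second. Its lowest animal was not animal 114 but animal 26 of the first block, and its highest was animal 23.

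TCAP, which caps the end of titin at the Z-disc, had values of 13.23, 13.97 and 14.45 in the first block and 13.09, 13.99 and 14.57 in the second. MYOT, an actin binding protein that stabilises the thin filaments, had values of 13.95, 14.48 and 14.67 in the first block and 13.90, 14.51 and 14.86 in the second. Both genes were lowest in animal 114, by less than 0.15 below the next animal, and the blocks overlapped. Of the 50 animals of the second block, 6 for TCAP and 11 for MYOT lay above the highest animal of the first.

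**Figure D1:**
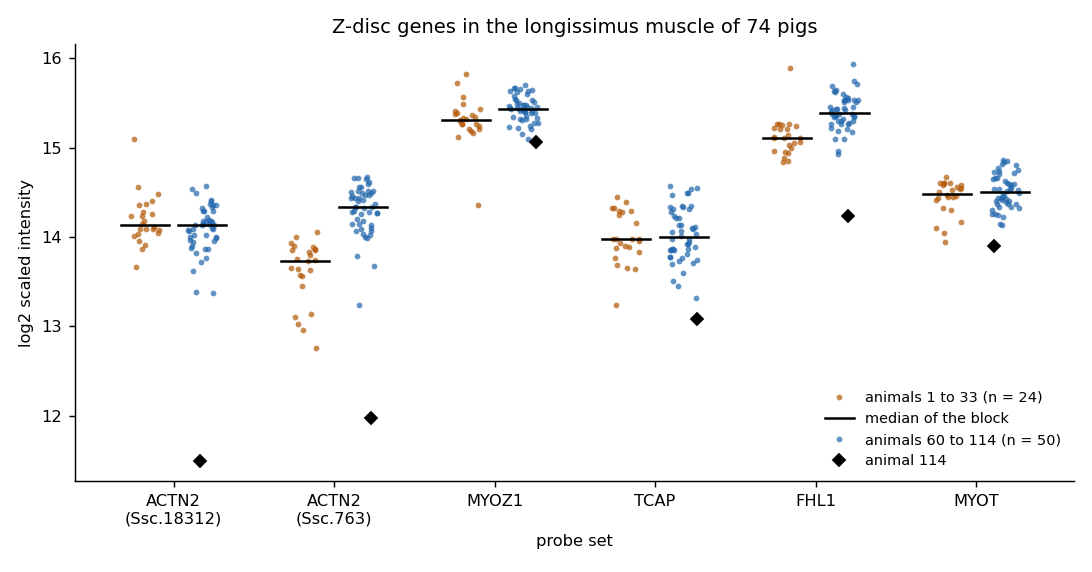
Log2 scaled intensity (vertical axis) of the 6 member probe sets (horizontal axis) in each animal, with orange points for the 24 animals of the first block, blue points for the 50 of the second, bars for block medians and black diamonds for animal 114. Animal 114 lies far below the others on both ACTN2 probe sets and on FHL1, and 42 of 50 second block animals lie above all first block animals on Ssc.763.1.S1_at.

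The spread among animals differed between the members. MYOZ1 and MYOT were steady, with within-block SDs of 0.19 and 0.20 that were larger than those of only 2.54% and 3.74% of kept probe sets. FHL1 (SD 0.24, above 10.1% of kept probe sets) and TCAP (SD 0.32, above 28.1%) came next. The ACTN2 probe sets had SDs of 0.40 and 0.41, above 53.2% and 54.3% of kept probe sets, but much of this was animal 114: without it, their SDs were 0.26 and 0.30, above 15.6% and 26.0%, beside 0.30 for TCAP (above 24.3%) and 0.20 for FHL1 (above 3.98%). The highest ACTN2 value of Ssc.18312.1.S1_at was 12.2-fold the lowest over all 74 animals and 3.30-fold without animal 114, and for MYOT the same range was 1.95-fold and 1.88-fold.

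Between the blocks, 3 of the 6 member probe sets differed, all with lower values in the first block. Over all kept probe sets limma called 36.6% lower and 24.8% higher in the first block at an adjusted p under 0.05 (Benjamini-Hochberg over 11999 probe sets), so that a difference between the blocks was common on this array and the members' count is near that background. ACTN2 on Ssc.763.1.S1_at was lower in the first block by 0.64 ± 0.10 (log2 difference and SE, adjusted p = 6.68e-08), which is 1.56-fold. FHL1 had a log2 difference of -0.26 ± 0.06 (adjusted p = 0.000233) and MYOZ1 one of -0.12 ± 0.05 (adjusted p = 0.0393). ACTN2 on Ssc.18312.1.S1_at had a difference in the other direction (0.15 ± 0.10, adjusted p = 0.195), and TCAP (-0.01) and MYOT (-0.07) did not pass either. On the deposited, unscaled values, where the median kept probe set was lower in the first block by a log2 difference of -0.66, all 6 probe sets passed as lower in the first block, with differences of -0.44 to -1.23, beside a median over the members of -0.68. The block could not be told apart from anything else that changed between the label numbers.

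The relation of the members to fibre type was read from the troponins, the calcium switch of the thin filament, whose subunits exist as slow and fast genes. The slow troponin score was the mean of the standardised log2 intensities of TNNT1, TNNI1 and TNNC1, and the fast score that of TNNT3, TNNI2 and TNNC2, each expressed in SDs among animals within blocks. No member was part of a score. In bulk muscle, fewer fibres of a type and less RNA per fibre cannot be told apart. The slow troponins moved together, with r of 0.896 (TNNT1 and TNNI1), 0.854 (TNNT1 and TNNC1) and 0.948 (TNNI1 and TNNC1), and their score had an r of 0.907 with the other slow fibre genes. Animal 114 had the lowest slow score, 5.10 SDs below its block mean, and the next lowest animal lay 2.02 SDs below.

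ACTN2 and FHL1 rose with the slow troponin score, and the other members did not pass the test. Of the 6 member probe sets 3 rose and none fell, where limma, with the block as covariate, called 1.59% of the 11996 kept probe sets outside the score as rising and 0.567% as falling. Per SD of the score, ACTN2 was higher by 0.30 ± 0.03 (log2 and SE) on Ssc.18312.1.S1_at, which is 1.23-fold (adjusted p = 1.75e-10), and by 0.26 ± 0.04 on Ssc.763.1.S1_at (1.20-fold, adjusted p = 3.04e-07). FHL1 was higher by 0.18 ± 0.02 per SD (1.14-fold, adjusted p = 3.86e-10). Ranked by limma's t statistic, highest first, Ssc.18312.1.S1_at was at place 5, FHL1 at place 7 and Ssc.763.1.S1_at at place 18 of the 11996 probe sets. Without animal 114 they were at places 18, 11 and 43.

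With block means removed, the correlations with the slow score were r = 0.742 and rho = 0.567 for ACTN2 on Ssc.18312.1.S1_at, r = 0.650 and rho = 0.535 on Ssc.763.1.S1_at, and r = 0.758 and rho = 0.626 for FHL1. The permutation p of each was 1e-05, the smallest that 100000 permutations of animals within blocks can give, except for r on Ssc.763.1.S1_at (p = 2e-05); 12 such relations of 6 probe sets and 2 scores were computed, and the adjusted p-values are those of limma over all probe sets. Without the 2 animals farthest from the median score (animals 29 and 114), r was 0.548, 0.363 and 0.647 in the same order. Animal 114 alone accounted for most of that change: without it the slopes were 0.18 ± 0.03 (adjusted p = 0.00108) on Ssc.18312.1.S1_at, 0.16 ± 0.04 (adjusted p = 0.098) on Ssc.763.1.S1_at and 0.16 ± 0.03 (adjusted p = 3.02e-05) for FHL1, and r was 0.543, 0.413 and 0.634. Over all kept probe sets 0.275% then rose with the score in place of 1.59%. ACTN2 on Ssc.18312.1.S1_at and FHL1 thus kept their calls and Ssc.763.1.S1_at did not, although under quantile normalization without animal 114 all 3 passed (adjusted p = 0.00139, 0.000333 and 8.13e-06, with 0.917% of kept probe sets rising).

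Within the blocks the 3 probe sets had positive correlations with the slow score throughout. In the first block r was 0.606 (permutation p = 0.0024) and 0.380 (p = 0.0658) for the ACTN2 probe sets and 0.633 (p = 0.00136) for FHL1, and in the second block without animal 114 it was 0.510 (p = 0.00026), 0.439 (p = 0.00153) and 0.634 (p = 2e-05). In the 24 animals of the first block alone limma called 0 kept probe sets at the adjusted threshold and 394 at an unadjusted p under 0.05, so that no call could be compared there. For none of the members did the slope differ between the blocks by limma's interaction term (unadjusted p of 0.119 to 0.713), and 1 of 11996 probe sets (0.00834%) passed that test, with 397 at an unadjusted p under 0.05.

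TCAP had a slope of 0.11 ± 0.04 per SD of the slow score that missed the threshold (adjusted p = 0.0756, r = 0.356 with permutation p = 0.00233, rho = 0.216 with p = 0.0671). This value rested on the second block and on animal 114, since r was 0.019 in the first block, 0.465 in the second and 0.195 without animal 114 in both. MYOT had a slope of 0.05 ± 0.02 (adjusted p = 0.282) and MYOZ1 one of 0.04 ± 0.02 (adjusted p = 0.443), and without animal 114 these were 0.01 ± 0.03 and 0.02 ± 0.03. The median slope of the 6 member probe sets was 0.15, beside -0.01 over all kept probe sets.

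**Figure D2:**
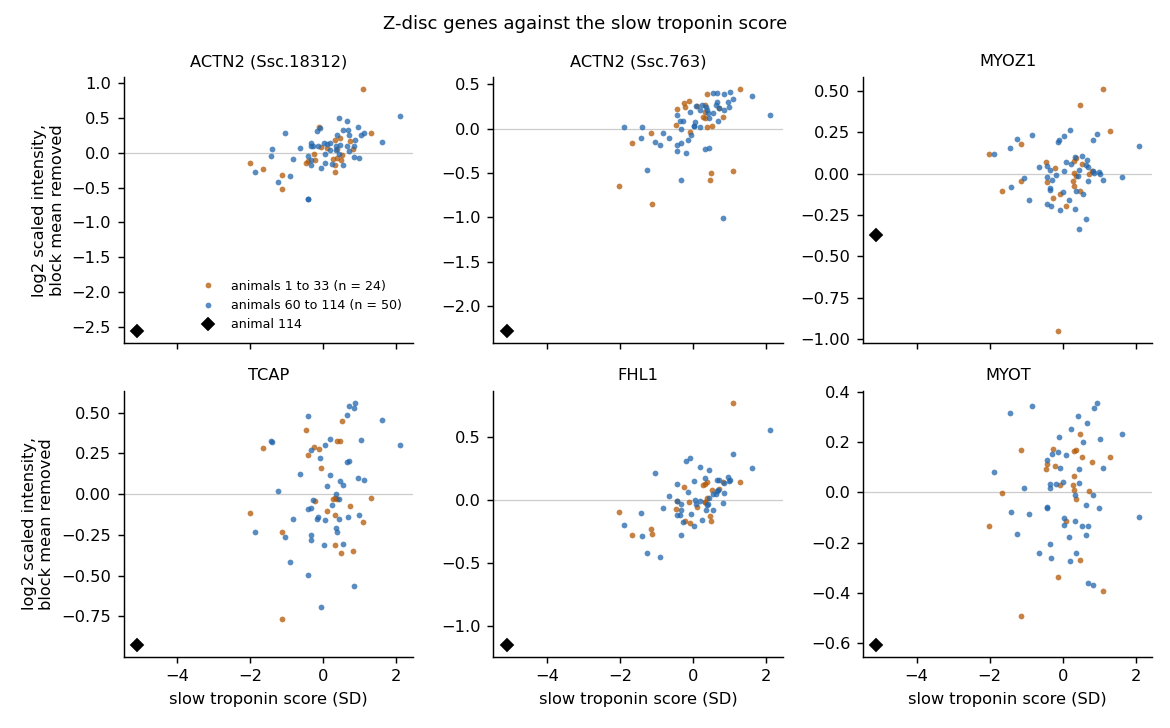
Log2 scaled intensity with block means removed (vertical axis, scaled separately per panel) against the slow troponin score in SDs (horizontal axis) for the 6 member probe sets, 1 point per animal, with animal 114 as a black diamond. ACTN2 and FHL1 rise along the cloud of the other animals too, with r of 0.543, 0.413 and 0.634 without animal 114, whereas in TCAP, MYOT and MYOZ1 the remaining animals show r of 0.195, 0.061 and 0.086.

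The fast troponin score gave another order of the members, with MYOZ1 in front. Of the 6 member probe sets 3 rose and none fell with it, where limma called 22.0% of kept probe sets as rising and 23.6% as falling. MYOZ1 rose by 0.15 ± 0.02 per SD (1.11-fold, adjusted p = 2.78e-12), with r = 0.797 and rho = 0.693 (permutation p = 1e-05 for both). FHL1 rose by 0.12 ± 0.03 (adjusted p = 0.000181, r = 0.484, rho = 0.397, permutation p = 5e-05 and 0.0007) and ACTN2 on Ssc.18312.1.S1_at by 0.12 ± 0.05 (adjusted p = 0.0262, r = 0.296, rho = 0.145, permutation p = 0.00824 and 0.216). ACTN2 on Ssc.763.1.S1_at (-0.04 ± 0.05), TCAP (-0.0048 ± 0.04) and MYOT (0.02 ± 0.03) did not pass.

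MYOZ1 held this relation in each block, with r = 0.923 in the first and 0.701 in the second (permutation p = 1e-05 for both), and without animals 23 and 26, the 2 farthest from the median score, r was 0.716. Its slope was 0.22 in the first block and 0.11 in the second, and the difference of the slopes missed the threshold (0.10 ± 0.03, unadjusted p = 0.00132, adjusted p = 0.0841), where 0.792% of all kept probe sets passed. Without animal 114 the slopes of MYOZ1 (0.15 ± 0.02, adjusted p = 1.77e-11) and FHL1 (0.09 ± 0.02, adjusted p = 0.00159) passed. ACTN2 on Ssc.18312.1.S1_at then no longer passed (0.05 ± 0.03, adjusted p = 0.252), and ACTN2 on Ssc.763.1.S1_at fell with the fast score (-0.12 ± 0.03, adjusted p = 0.00444, r = -0.377, rho = -0.231, permutation p = 0.00159 and 0.0488). Over all kept probe sets 21.6% then rose and 23.4% fell. After trimmed mean scaling the 2 ACTN2 probe sets therefore had slopes of opposite sign with the fast score, both with and without animal 114, whereas on the deposited values both slopes were positive (0.04 and 0.15).

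Array level moved with the fast score. Over the 74 animals, with block means removed, the log2 trimmed mean before scaling had r = -0.912 and rho = -0.888 with the fast score (permutation p = 1e-05, adjusted over 6 relations of array and RNA measures p = 6e-05), and r of -0.926 with TNNT3, -0.702 with TNNI2 and -0.926 with TNNC2. It had r = -0.280 and rho = -0.171 with the slow score (permutation p = 0.0149 and 0.145, the first 0.0447 after adjustment). Among the members its r, given as a description, was -0.649 with MYOZ1, -0.541 with FHL1, -0.329 and 0.14 with the ACTN2 probe sets, 0.020 with TCAP and -0.005 with MYOT.

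Quantile normalization, which gives all arrays the same distribution, changed the fast troponins themselves: r of TNNT3 with TNNI2 went from 0.757 to -0.099 and r of TNNI2 with TNNC2 from 0.696 to -0.356, while the slow troponin pairs stayed between 0.878 and 0.920. Under it limma called 15.7% of kept probe sets in either direction with the fast score and none of the 6 member probe sets (adjusted p of 0.104 to 0.995, with FHL1 at an r of -0.270). There MYOZ1 had a slope of 0.00018 ± 0.02 (adjusted p = 0.995), FHL1 one of -0.06 ± 0.03 (adjusted p = 0.104), and without animal 26 the slope of MYOZ1 was -0.04 (adjusted p = 0.0714). Its r with the single fast troponins over all animals differed in sign, with 0.017 for TNNT3, 0.385 for TNNI2 and -0.413 for TNNC2. With array level as a covariate on the scaled values, in contrast, MYOZ1 had a slope of 0.24 ± 0.04 (adjusted p = 1.81e-05) and FHL1 one of -0.01 ± 0.06, with 4.63% of kept probe sets rising. The direction of MYOZ1 and FHL1 with the fast score thus depended on how the arrays were scaled, and the part of array level in these relations was not tested beyond these values. With the slow score the ACTN2 probe sets and FHL1 kept direction and call under both settings, with slopes under quantile normalization of 0.26, 0.28 and 0.16 (adjusted p of 8.46e-09, 5.74e-09 and 3.69e-09, with 1.67% of kept probe sets rising) and of 0.28, 0.30 and 0.16 with array level as a covariate (1.83% rising). The slow slope of MYOZ1, which did not pass, turned from 0.04 to -0.03 under quantile normalization, and TCAP passed with array level as a covariate (adjusted p = 0.047).

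**Figure D3:**
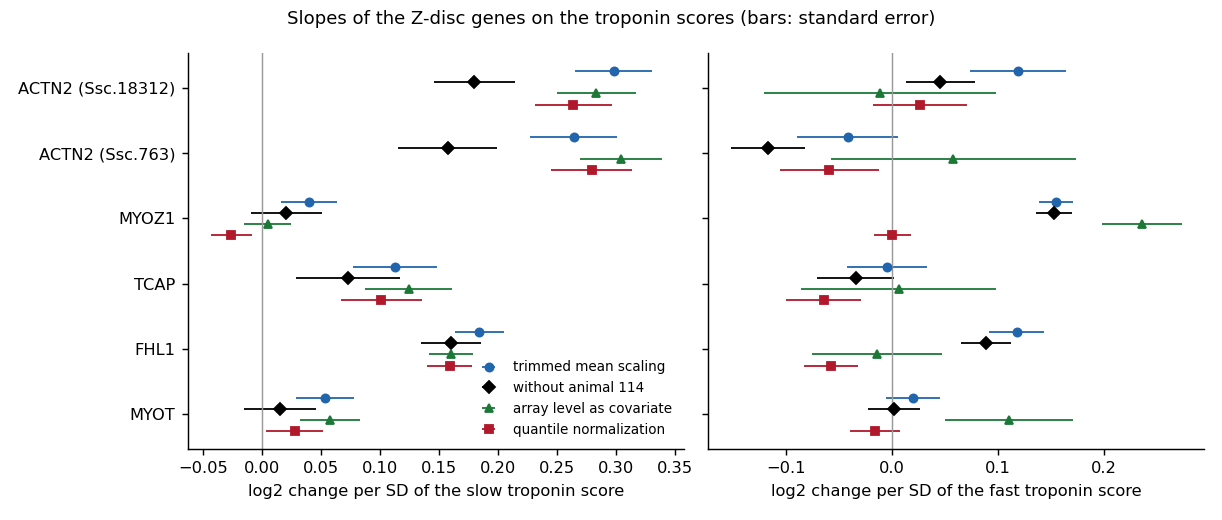
Slope of each member probe set (rows) in log2 per SD of the slow (left) and fast (right) troponin score, with bars for the standard error, under trimmed mean scaling, without animal 114, with array level as a covariate and under quantile normalization. The slow slopes of ACTN2 and FHL1 stay above 0 in all 4 settings, and the fast slope of MYOZ1 is 0.15, 0.15, 0.24 and 0.00018.

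**Figure D4:**
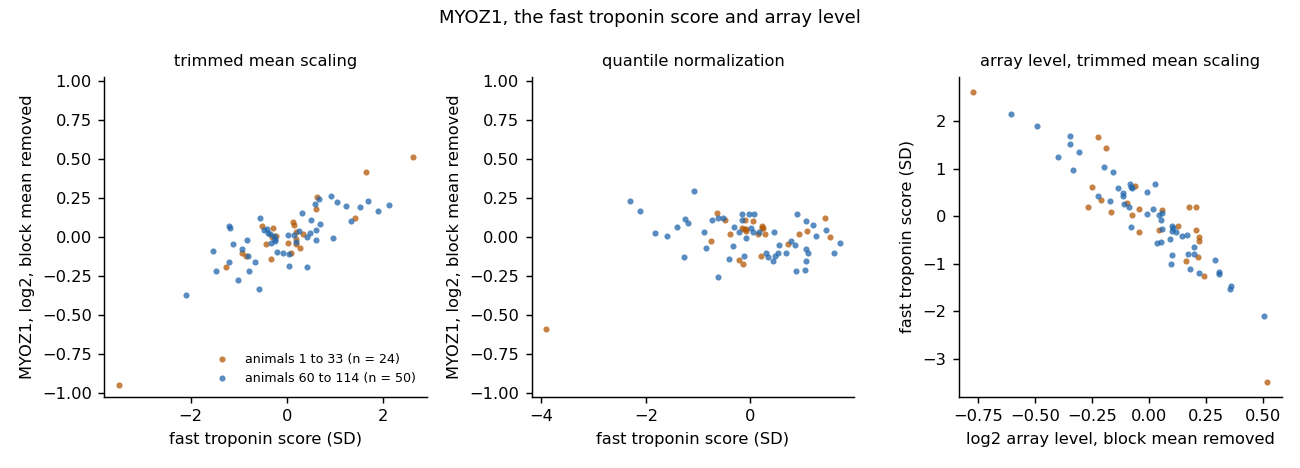
MYOZ1 (log2, block mean removed) against the fast troponin score under trimmed mean scaling (left) and quantile normalization (middle), and the fast score against log2 array level with block means removed (right), 1 point per animal with the first block in orange and the second in blue. The rise with r = 0.797 on the left is absent in the middle, and on the right the score falls along the array level with r = -0.912.

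RNA quality, read as the log2 ratio of 3-prime over 5-prime control probe sets, had r = 0.144 (ACTB) and 0.260 (GAPDH) with the slow score and 0.032 and -0.152 with the fast score. For GAPDH and the slow score the permutation p was 0.0246 (adjusted p = 0.0492), but rho was 0.069 (p = 0.559). With the mean of the ACTB and GAPDH ratios as the covariate, the slow slopes were 0.29 and 0.25 for ACTN2 and 0.19 for FHL1. The same 3 probe sets passed. The GAPDH ratio was not entered on its own, so its separate part in these slopes was not tested.

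With both scores in 1 model limma called 1.66% of kept probe sets as rising with the slow score, and 22.5% as rising and 23.8% as falling with the fast score. ACTN2 had a slope with the slow score on both probe sets (0.29 ± 0.03 and 0.30 ± 0.04) and, with the fast score, 0.04 ± 0.03 on Ssc.18312.1.S1_at and -0.13 ± 0.04 on Ssc.763.1.S1_at (adjusted p = 0.397 and 0.00216). FHL1 rose with both (0.16 ± 0.02 with the slow and 0.07 ± 0.02 with the fast score, adjusted p = 3e-09 and 0.00262). MYOZ1 rose with the fast score alone (0.16 ± 0.02, adjusted p = 1.3e-11) and had -0.01 ± 0.02 with the slow score. TCAP and MYOT passed with neither, TCAP with an adjusted p of 0.0506 for the slow score. The difference between the members' slopes was not itself tested. This model was run after trimmed mean scaling only, and always with animal 114. With the fast score alone, the slopes of FHL1 and MYOZ1 were -0.06 and 0.00018 under quantile normalization. They were -0.01 and 0.24 with array level as a covariate.

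Among themselves the members did not vary as a unit. For each gene, limma was run with its main probe set (for ACTN2, Ssc.763.1.S1_at, the one of the higher median) as the regressor, and a pair of genes was counted where the adjusted p was under 0.05 both ways, with each gene of the pair as the regressor in turn. Of the 10 pairs of the 5 genes 6 passed, all with positive r, where the share of all probe sets that passed in either direction was 21.1% for ACTN2, 32.5% for MYOZ1, 16.3% for TCAP, 21.3% for FHL1 and 27.7% for MYOT. ACTN2 correlated with MYOT (r = 0.562), TCAP (r = 0.554) and FHL1 (r = 0.532), TCAP with FHL1 (r = 0.407) and MYOT (r = 0.327), and MYOZ1 with FHL1 (r = 0.333). Under quantile normalization MYOZ1 with FHL1 turned to r = -0.196 and TCAP with MYOT had r = 0.262. Neither of these pairs passed there, and the others named did. Without animal 114 only 2 pairs passed, ACTN2 with MYOT (r = 0.469) and with TCAP (r = 0.462), while ACTN2 with FHL1 had r = 0.253. ACTN2 and MYOZ1 had r = 0.005 over all animals and -0.203 without animal 114. All these ACTN2 values are those of Ssc.763.1.S1_at. On Ssc.18312.1.S1_at r without animal 114 was 0.025 with MYOT, 0.311 with TCAP and 0.670 with FHL1. The limma adjusted p with those genes as regressors was 0.900, 0.0669 and 9.43e-07, so the 2 pairs did not hold on that probe set.

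The 2 probe sets of ACTN2 agreed only in part. With block means removed their r was 0.647, but it was 0.072 in the first block and 0.793 in the second, and without animal 114 it was 0.291 over all animals and 0.440 in the second block. The closest member of Ssc.18312.1.S1_at was FHL1 (r = 0.788, and 0.670 without animal 114). Ssc.763.1.S1_at had about equal r with MYOT (0.562), TCAP (0.554) and FHL1 (0.532), and which member was closest to it depended on the scaling, since under quantile normalization r was 0.480, 0.492 and 0.713. The sources at hand do not say which transcripts of ACTN2 each probe set detects, so the values of this gene are uncertain where its probe sets differ.

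**Figure D5:**
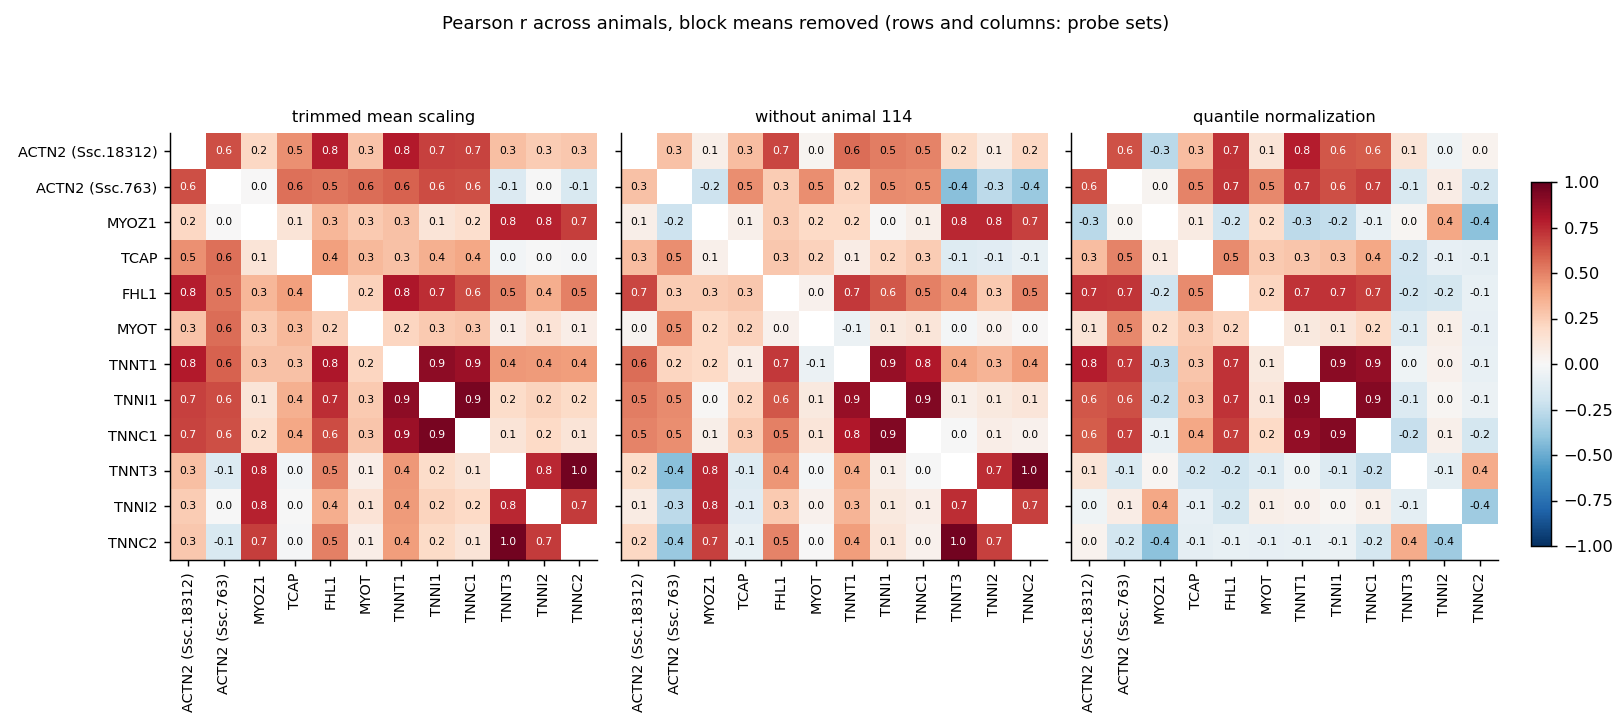
Pearson r between the 6 member probe sets and the 6 troponins (rows and columns) across animals with block means removed, over all 74 animals after trimmed mean scaling (left), without animal 114 (middle) and after quantile normalization (right). The slow troponins have positive r with ACTN2 and FHL1 in all 3 panels. MYOZ1 has r of 0.766 with TNNT3, 0.767 with TNNI2 and 0.695 with TNNC2 on the left. On the right these values are 0.017, 0.385 and -0.413.

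The genes whose pattern was most like that of each member, by r over 74 animals with block means removed, differed from member to member. All points of 1 animal share an array and its level, so that these r are descriptions. For ACTN2 on Ssc.18312.1.S1_at they were the slow troponin TNNT1 (r = 0.794), FHL1 (r = 0.788) and the slow myosin light chain MYL2 (r = 0.785), and for FHL1 they were MYL2 (r = 0.819), TNNT1 (r = 0.811) and the slow myosin heavy chain MYH7 (r = 0.795). Without animal 114 these values were 0.560, 0.670 and 0.492 for ACTN2 and 0.729, 0.706 and 0.685 for FHL1. For ACTN2 on Ssc.763.1.S1_at they were PDLIM5, a PDZ and LIM protein of the Z-disc (r = 0.773), ATP2A2, the slow calcium pump of the sarcoplasmic reticulum (r = 0.757), and MYBPC1, the slow myosin binding protein C (r = 0.735), with 0.774, 0.657 and 0.562 without animal 114. Several of these genes were then no longer among the closest. For Ssc.18312.1.S1_at FHL1 ranked 1 without animal 114, but TNNT1 ranked 12 and MYL2 ranked 50, and for Ssc.763.1.S1_at PDLIM5 ranked 1, ATP2A2 ranked 22 and MYBPC1 ranked 138. For FHL1 the ranks of MYL2, TNNT1 and MYH7 were 1, 2 and 4. Under quantile normalization with all animals these FHL1 ranks were 8, 3 and 9. For Ssc.18312.1.S1_at TNNT1, FHL1 and MYL2 then ranked 2, 4 and 1, and for Ssc.763.1.S1_at ATP2A2 ranked 4 and MYBPC1 ranked 3.

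MYOZ1 was closest to 3 enzymes of carbohydrate metabolism, PGM1, which converts glucose phosphates in glycogen turnover (r = 0.907), PFKM, the muscle phosphofructokinase (r = 0.906), and PGK1 of lower glycolysis (r = 0.884). Unlike its relation to the fast troponins, these values were still high under quantile normalization (r of 0.631, 0.801 and 0.712), where PFKM ranked 1, PGK1 ranked 2 and PGM1 ranked 14 of all kept probe sets. In the first block they were 0.968, 0.908 and 0.927 and in the second 0.825, 0.903 and 0.820. TCAP was closest to LOC100524308 (r = 0.698), MAP1LC3B, a protein of the autophagosome (r = 0.697), and ETFDH, a mitochondrial flavoprotein oxidoreductase of fat oxidation (r = 0.672). MYOT was closest to the protein phosphatase PPM1B (r = 0.686), PDLIM5 (r = 0.673) and the ubiquitin conjugating enzyme UBE2D2 (r = 0.664). PDLIM5 was thus among the 3 closest genes of both MYOT and ACTN2 on Ssc.763.1.S1_at after trimmed mean scaling. Under quantile normalization it ranked 8 for MYOT and 10 for Ssc.763.1.S1_at. There PPM1B ranked 1 and UBE2D2 ranked 75 for MYOT. The ranks of LOC100524308, MAP1LC3B and ETFDH for TCAP were 6, 1 and 2.

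A wider list of 51 genes of the Z-disc and its binding partners had probe sets for 33 genes, of which 46 probe sets of 31 genes were kept. With the slow score 6 of these 46 probe sets rose and 0 fell, beside 1.59% and 0.567% of all kept probe sets, and the median slope was 0.07. They belonged to LMCD1, a LIM domain protein with a cysteine rich region (0.56 ± 0.07 and 0.45 ± 0.06 per SD on its 2 probe sets), PDLIM1, a LIM protein that binds alpha-actinin (0.29 ± 0.04), NRAP, a nebulin related anchoring protein (0.23 ± 0.04), the muscle cofilin CFL2 (0.16 ± 0.03) and the small heat shock protein CRYAB (0.14 ± 0.04, adjusted p = 0.0392). CFL2 and CRYAB each had a further probe set that did not pass (0.11 and 0.03). Without animal 114 only LMCD1 on both probe sets and PDLIM1 passed (adjusted p of 0.000211, 0.000105 and 2.19e-07). Titin (TTN), nebulin (NEB), desmin (DES) and the non-muscle alpha-actinin ACTN1 were kept and did not pass with the slow score.

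With the fast score 12 of the 46 probe sets rose and 5 fell, beside 22.0% and 23.6% of all kept probe sets, and without animal 114 the counts were 9 and 7. The largest slopes upward were those of the Xin actin binding repeat protein XIRP1 (0.28), the LIM protein FHL3 (0.21), the small heat shock protein HSPB1 (0.19) and the actin capping subunit CAPZB (0.17), and downward those of CFL2 (-0.23), the capping subunit CAPZA2 (-0.23), the leiomodin LMOD3 of the thin filament (-0.19) and XIRP2 (-0.16). The probe sets of CAPZA2 went opposite ways, since the brighter one rose with the fast score (0.08, adjusted p = 0.0452), and the further probe sets of CFL2 (-0.08, adjusted p = 0.0503) and CAPZB (0.09, adjusted p = 0.118) did not pass. Under quantile normalization 2 rose and 4 fell.

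The other fibre type genes showed how far the scores reached. Of 11 kept probe sets of 6 slow fibre genes 5 rose with the slow score and 0 fell, led by CASQ2, the slow calsequestrin (0.70 ± 0.13), MYL3 (0.37 ± 0.03), ATP2A2 (0.27 ± 0.02 on 1 of its 4 probe sets) and MYL2 (0.25 ± 0.02), with MYH7 at 0.21 ± 0.02. The CASQ2 probe set was dim and variable (mean log2 intensity 7.33, SD 1.39). The mean was 14.28 for MYL3, 14.57 for that ATP2A2 probe set, 15.50 for MYL2 and 15.47 for MYH7. The kept probe sets of TPM3 did not pass (-0.03, -0.07 and 0.19). The slopes of ACTN2 (0.30 and 0.26) lay between those of MYL3 and MYL2 and that of FHL1 (0.18) below that of MYH7, differences that were not tested. This order rested on animal 114, without which the slopes were 0.18 and 0.16 for ACTN2 and 0.16 for FHL1, beside 0.18 for both MYL2 and MYH7 and 0.35 for MYL3. Of the 7 kept probe sets of 5 fast fibre genes 0 passed with the slow score. With the fast score 6 rose and 1 fell, beside 22.0% and 23.6% of all kept probe sets. Under quantile normalization 3 rose and 0 fell with the fast score, beside 7.8% and 7.91% of all kept probe sets. There 1 fell with the slow score. Without animal 114 the slow fibre count was 4 of 11, CASQ2 being the one lost (adjusted p = 0.208).

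Markers of other cell types were set beside these results. With the slow score 1 of the 4 kept smooth muscle probe sets rose (CNN1, adjusted p = 0.038) and 1 of 4 fibroblast probe sets fell (COL1A2, adjusted p = 0.038), and neither passed without animal 114. None of the kept probe sets of the adipocyte (2), endothelium (5), leukocyte (3), erythroid (2) and nerve (1) lists passed. Over all kept probe sets 1.59% rose and 0.567% fell. Under quantile normalization VWF of the endothelium list (-0.20, adjusted p = 0.0293) and ALAS2 of the erythroid list (-0.40, adjusted p = 0.0387) fell with the slow score. COL1A2 fell there too (-0.22, adjusted p = 0.0463), beside 0.517% of all kept probe sets. With the fast score LUM of the fibroblast list (-0.43, adjusted p = 4.57e-07), CD163 of the leukocyte list (-0.38, adjusted p = 2.19e-06), HBB of the erythroid list (-0.23, adjusted p = 0.000255) and S100B of the nerve list (-0.18, adjusted p = 0.00142) fell, and DES, counted in the smooth muscle list, rose (0.09, adjusted p = 0.018). No other kept probe set of the lists of other cell types passed with the fast score, beside 22.0% rising and 23.6% falling over all kept probe sets. Without animal 114 no smooth muscle probe set passed with it, and in the erythroid list 1 rose and 1 fell. Under quantile normalization LUM (adjusted p = 0.00857) and CD163 (adjusted p = 0.0128) passed, and DES had -0.06 (adjusted p = 0.164). The summed log2 intensity of the erythroid list ranged from 8.73 to 10.50 in the first block and from 8.11 to 12.84 in the second, the last being animal 114, and had r = -0.486 with the slow score over all animals and -0.115 without animal 114. The fibroblast list ranged from 13.21 to 14.67 and from 13.40 to 14.69, with r of -0.297 and -0.198. The part of these cells in the members' results was not tested.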

How the data were processed

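The authors hybridised 1 Affymetrix Porcine Genome Array per animal, analysed the arrays with GCOS 1.1.1 using global scaling to 500, and filtered by MAS5 present calls before PLIER in ArrayAssist. Linear intensity values of 24123 probe sets were deposited, without a statement on which of the algorithms produced them. For the present report the trimmed mean of every array was set to 500 (2% trimmed at each end), and values were floored at 1 and taken to log2; no kept value lay at the floor. Of the 23999 probe sets that were not controls, 10069 had 1 gene symbol in the platform annotation, 198 several and 13732 none. The 11999 probe sets of highest median were kept (of which 6381 had 1 symbol; lowest kept median 139).

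Groups and label numbers came from the sample labels. limma 3.58.1 (R 4.3.3; lmFit and eBayes) was fitted to every kept probe set with the score and the block as terms, Benjamini-Hochberg adjusted over all kept probe sets other than those of the score, with a threshold of 0.05. The script was tested on simulated data. Permutation tests were two-sided, with 100000 permutations of animals within blocks. The depth of an array is not a count, and the number of arrays limits the precision.

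The members, gene lists and tests were chosen with earlier results of these data known. Genes were named by rule: all member probe sets, the troponins, up to 4 genes passing in each direction in the wider Z-disc and fibre type lists with the largest slopes first, and the 3 genes of highest r with each member; NEB, DES, ACTN1, CRYAB and the cell markers were named after their values were seen. Alternatives were other scalings, filters, covariates, scores and animal subsets. Leaving out animals 23, 26 or 114 was chosen after seeing the data. Sequences, family, sex and drip loss were not used here.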

Additional observations from a re-analysis of the deposited data

How the results depend on the processing

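With the slow score, 3 member probe sets rose in the main setting and 2 to 4 in all other settings but 2: 5 on the deposited values and 0 in the first block alone, where fewer animals were tested. Of all kept probe sets, 1.59% rose in the main setting, 38.4% on the deposited values and 0% in the first block. In the settings with 2 to 4 members the share of all tested probe sets called in either direction was 0.25% to 11.2%. TCAP passed in the second block alone (0.14, adjusted p = 0.0392), with array level as a covariate (0.12, adjusted p = 0.047) and on the deposited values (0.21), and MYOT on the deposited values (0.15). Of the single values with the slow score, 108 kept direction and call, 5 lost a call, 4 gained one and 3 turned, all of MYOZ1 (-0.0264 under quantile normalization, -0.0367 under it without animal 114, -0.00555 with both scores). ACTN2 on Ssc.763.1.S1_at lost its call without animals 29 and 114 (0.14, adjusted p = 0.227) or without animal 114. With the fast score the main count of 3 rising was 0 under quantile normalization, with or without animal 26, 1 in the first block alone and 1 with array level as a covariate. It was 3 with 1 of them falling (ACTN2 on Ssc.763.1.S1_at) with both scores and without animal 114, and under quantile normalization without animal 114 it was 2, both falling (Ssc.763.1.S1_at and FHL1). Of all tested probe sets, 45.6% were called in either direction in the main setting and 15.7% under quantile normalization (15.6% without animal 26, 13.5% without animal 114). The share was 15.9% in the first block alone, 8.34% with array level, 46.2% with both scores and 45.1% without animal 114. Of the single values with the fast score, 91 kept direction and call, 12 lost a call, 4 gained one and 19 turned. On the deposited values 0.152 (ACTN2 on Ssc.763.1.S1_at) and 0.116 (TCAP) had turned, and in the second block alone 0.0274 and 0.0411 for the same probe sets. With array level as a covariate they were -0.0111 (ACTN2 on Ssc.18312.1.S1_at), 0.0577 (on Ssc.763.1.S1_at), 0.00602 (TCAP) and -0.0142 (FHL1). TCAP turned to 0.00126 with the score of the other fast fibre genes, 0.0201 without animals 23 and 26 and 0.0111 without animal 26. Under quantile normalization FHL1 had -0.0581 and MYOT -0.0161. Without animal 114 as well, FHL1 had -0.0808, MYOT -0.0238 and ACTN2 on Ssc.18312.1.S1_at -0.0299, and without animal 26 FHL1 had -0.0347, MYOT -0.0198 and MYOZ1 -0.0426. The cause was not tested. Between the blocks the count of 3 was 6 on the deposited values, where ACTN2 on Ssc.18312.1.S1_at turned to -0.439, and MYOZ1 missed the threshold when all probe sets that were not controls were tested (adjusted p = 0.0564). On the deposited values the median difference over all kept probe sets was -0.66. Of the 10 pairs of members 6 passed both ways, 9 on the deposited values, 4 under quantile normalization and 4 in the second block alone, but 0 in the first block alone (ACTN2 and MYOT passed there with MYOT as the regressor only, adjusted p = 0.0382) and 2 without animal 114, and the 6 probe sets of the wider list were then 3. No share over all probe sets is given beside the counts of pairs in these other settings. The planned comparison of ACTN3 with ACTN2 and of MYOZ1 with MYOZ2 was not run, since neither ACTN3 nor MYOZ2 had a probe set of its own. No paired analysis was possible because the animals form 1 group. Precision is limited by how many arrays there are.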

Other observations

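Between the label blocks, the probe sets of 1 gene gave unlike differences for some genes of the wider Z-disc list too. The genes named here were chosen after their values were seen. The share of such genes over the whole array is not given, so the count below has no background. Of its 46 kept probe sets 10 were higher and 15 lower in the first block, beside 24.8% and 36.6% of all kept probe sets. Of the list, 12 genes had over 1 kept probe set, and in 5 of them the log2 differences between the blocks were more than 0.5 apart, as they were for the 2 ACTN2 probe sets (0.79 apart). The widest gap was that of the small heat shock protein CRYAB, with -0.20 on 1 probe set and -2.79 on the other. The larger differences of CRYAB and of ANKRD1 were those of dimmer probe sets. Mean log2 intensities were 14.66 and 8.63 for CRYAB and 13.65 and 10.07 for ANKRD1. ANKRD1, a stress responsive ankyrin repeat protein of the sarcomere, had -0.74 and -2.40, and PPP3CA, the catalytic subunit of calcineurin, had 0.11, 1.17 and 1.37 on its 3 probe sets. Both CAPZB probe sets, of the protein that caps actin at the Z-disc, were higher in the first block (1.02 and 0.72), and both BAG3 probe sets were lower (-0.48 and -0.998). The block could not be told apart from other changes along the label numbers.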
